A study of Mus musculus with 16 samples.

Results

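The hearts of female mice were compared between 4 mice lacking estrogen receptor alpha (ERα) in their cardiomyocytes (cs-ERα-/-) and 4 wild type (WT) mice, on 8 arrays of the 16 in the series, the 8 being every array whose label gives a female mouse. The other 8 arrays hold male mice of the same genotypes and serve here only for a comparison at the end. All mice were untreated, of strain C57BL/6 and 18 weeks old. Both female groups carried ERα alleles with a floxed exon 3: the WT mice were ERα flox/flox without mention of Cre, and the cs-ERα-/- mice also carried Cre under the α-MHC promoter, which is active in cardiomyocytes of atria and ventricles. No Cre-only group is among the samples, so the deletion and the presence of Cre cannot be told apart. RNA came from pulverized heart tissue, 1 mouse per array, so that transcripts of every cardiac cell type were measured together, and a difference in the number of cells of a type cannot be told apart from a difference in RNA per cell. The question was which transcripts differ in the female heart when cardiomyocytes lose ERα.

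ERα is a nuclear receptor that binds estrogen and then regulates genes through estrogen response elements in DNA or through other transcription factors. It is made by cardiomyocytes and by vascular cells, fibroblasts and macrophages of the heart, and in this model only cardiomyocytes should lose it. A heart under load or injury is known to raise a typical group of transcripts: natriuretic peptides and skeletal or fetal isoforms of contractile proteins in cardiomyocytes, and matrix, inhibitor and inflammatory genes in other cells.

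Promoter sequences are shown for 3 of the genes that rose most in cardiac muscle, with the letters searched in them and values described further on. They are from RefSeq (GRCm38.p6) and run from 250 bases before the transcription start to its last preceding base, 5′ to 3′ on the strand of the gene. In Acta1, which encodes skeletal α-actin (chr8:123894776-123895025, minus strand), the capitals mark a CArG box, the binding motif of serum response factor. For Nppa, the gene of atrial natriuretic peptide (chr4:148000472-148000721, plus strand), they mark the TATA box. For Atp2a1, the gene of the fast skeletal muscle calcium pump SERCA1 (chr7:126463074-126463323, minus strand), they mark the half-site of an estrogen response element, here on the opposite strand.
Acta1: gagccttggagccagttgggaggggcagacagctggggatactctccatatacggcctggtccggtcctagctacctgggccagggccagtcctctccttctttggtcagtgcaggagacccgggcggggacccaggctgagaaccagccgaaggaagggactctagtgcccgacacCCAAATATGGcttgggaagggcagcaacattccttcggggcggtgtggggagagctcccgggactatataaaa
Nppa: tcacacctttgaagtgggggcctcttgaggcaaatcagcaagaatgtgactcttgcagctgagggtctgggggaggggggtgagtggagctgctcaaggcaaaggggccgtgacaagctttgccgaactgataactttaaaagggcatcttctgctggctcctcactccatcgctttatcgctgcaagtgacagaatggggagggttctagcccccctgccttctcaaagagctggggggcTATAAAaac
Atp2a1: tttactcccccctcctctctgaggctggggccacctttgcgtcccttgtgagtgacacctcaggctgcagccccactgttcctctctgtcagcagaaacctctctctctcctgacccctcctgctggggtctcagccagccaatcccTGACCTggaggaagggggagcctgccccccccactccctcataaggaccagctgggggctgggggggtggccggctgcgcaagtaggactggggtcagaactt
Of 56 genes that changed by any probe (below), 50 had a promoter in the reference, each of 300 bases. None of the 50 held the palindromic estrogen response element, searched as GGTCA and TGACC 3 bases apart, which occurred in 0.074% of the 27025 genes with a promoter. The half-site AGGTCA, searched on both strands like the other motifs, was in the promoters of 8 of the 50 genes (16%), against 18.1% of all genes: Atp2a1, Atp6v0e2, C1qc, Ctnna3, Lyz1, Psmb10, Slc51a and Spsb4. A CArG box was in 2 of the 50, Acta1 and Cbr2 (4%, against 1.81% of all genes), and TATAAA was in 9 (18%, against 15.7%).

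Each array gave 25697 probe signals, normalized together and put on a log2 scale, and 12008 probes for 8424 named genes were detected on at least 3 of the 4 arrays of either group. The arrays detected 11794 to 11981 probes in WT and 11945 to 12610 in cs-ERα-/-, and 2 arrays correlated at 0.99 to 0.995. The female labels were borne out by Xist, the transcript of the inactive X, detected on 8 of 8 arrays, and by the Y-linked Eif2s3y, detected on 0 of 8. Cardiac muscle was borne out by Myh6, the adult α-myosin heavy chain, whose brightest probe read 15.36 to 15.52. The deleted gene could not be followed: neither of the 2 Esr1 probes nor any of the 3 Esr2 probes was detected on any array, so these arrays give no check of the deletion. The paper reports lower ERα expression by qRT-PCR in heart tissue of cs-ERα-/- mice of each sex.

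Few transcripts passed the threshold for a difference between cs-ERα-/- and WT hearts, and more of them were higher than lower in cs-ERα-/-. Of the 12008 probes, 68 (0.566%) differed between cs-ERα-/- and WT hearts at a Benjamini-Hochberg adjusted p under 0.05 in limma, 57 with a rise (0.475%) and 11 with a fall (0.0916%) in cs-ERα-/-, and these are the probes said to be called, or to have risen or fallen. They stood for 56 named genes (0.665% of those tested), 48 higher (0.57%) and 8 lower (0.095%), and for 7 probes without a gene name. Unadjusted, 1260 probes had a p under 0.05, against 600.4 by chance. The median size of a called change was 0.60 on the log2 scale, and 10 probes had an estimated change of 2-fold or more. Among the 10, a probe without a gene name was undetected on every WT array, with a bound of at least 1.94-fold. Another was undetected on every cs-ERα-/- array, with a bound of at least 1.56-fold. The 4 cs-ERα-/- arrays did not overlap the 4 WT arrays for 67 of the 68 called probes, against 6.08% of all probes (3.27% with cs-ERα-/- above and 2.81% below). The count depended on 3 hearts, falling to 38 without cs-ERα-/- replicate 1 or 3 and to 42 without WT replicate 1, and on the sharing of variance across probes, with 22 calls when no trend of variance with signal was fitted and 3 in an ordinary linear model. The median over all named genes was -0.004, and 48.6% of them were above 0.

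**Figure D1:**
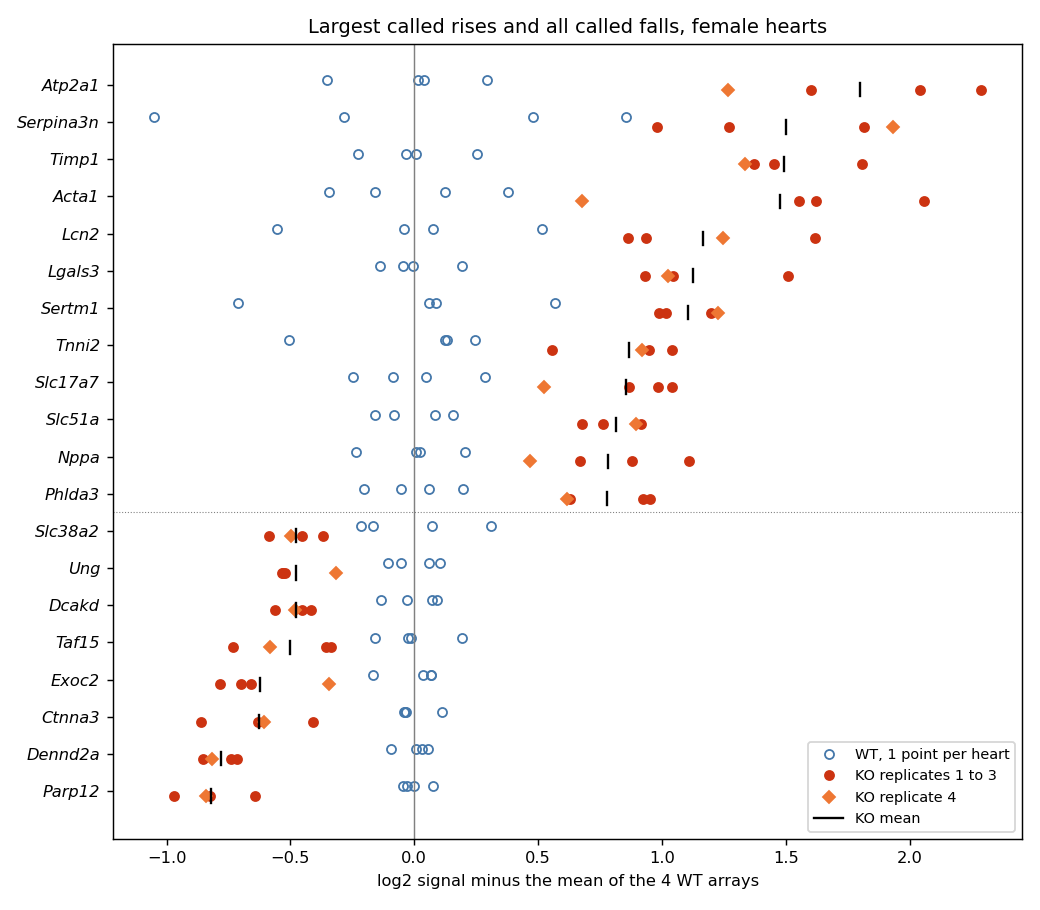
Log2 signals of the 12 called named genes that rose most and of all 8 that fell, each relative to the mean of the 4 WT arrays (horizontal axis), with 1 point per heart and a black tick for the cs-ERα-/- (KO) mean. In all 20 genes the 4 KO points lie on one side of the 4 WT points, and replicate 4 (diamonds) is the lowest KO point for Atp2a1, Acta1, Slc17a7 and Nppa and, by under 0.05, for Timp1 and Phlda3.

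Isoforms known from skeletal muscle were among the genes that rose, and 1 of them, Atp2a1, had the largest change of all called probes. Atp2a1 read 5.27, 5.91, 5.63 and 5.66 in WT and 7.66, 7.22, 7.91 and 6.88 in cs-ERα-/- hearts. Each cs-ERα-/- heart was above each WT heart, and the rise was 1.80 ± 0.20 on the log2 scale (SE, n = 4 a group, limma adjusted p = 0.000311), or 3.48-fold. Atp2a1 was detected on 3 of the 4 WT arrays, so its WT level lay near background and the size of the fold is less certain. Acta1, the skeletal isoform of the thin filament actin, read 11.00, 10.81, 11.54 and 11.28 in WT and 12.78, 13.22, 12.71 and 11.84 in cs-ERα-/-, a rise of 1.48 ± 0.21 (adjusted p = 0.00368). The lowest cs-ERα-/- value, in replicate 4, was still above the highest WT value. Tnni2, fast troponin I, rose by 0.87 ± 0.15 (adjusted p = 0.0136), from 6.84 to 7.59 in WT to 7.90 to 8.38. Mybpc2, fast myosin-binding protein C, rose by 0.65 ± 0.10 (adjusted p = 0.00402), from 8.03 to 8.34 in WT to 8.62 to 8.98.

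Of the 9 genes tested in the list of fast skeletal isoforms, 4 were called higher and none lower. Among all named genes 0.534% were called higher by the brightest probe, by which each gene of a list is counted. The 9 include Tnnt1, the slow troponin T, and Ckm, a creatine kinase also on the ventricular list. Like the other lists below, it was written with earlier results of these data known, so its share of calls cannot be read against that of all genes. Mylpf, the fast regulatory light chain, was 0.64 ± 0.20 higher without being called (adjusted p = 0.20). Others did not go with them: Myl1, the fast essential light chain, changed by -0.01 ± 0.19 and the parvalbumin gene Pvalb by 0.24 ± 0.27. Transcripts that define fast skeletal muscle fibres were at background: Myh1, Myh4, Tnnt3, Tnnc2, Actn3 and Casq1 were not detected on any of the 8 arrays. The mean log2 level of the 9 tested genes was 8.90 to 9.14 on the 4 WT arrays and 9.42 to 9.77 on the 4 cs-ERα-/- arrays, lowest in replicate 4.

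Transcripts known as markers of cardiomyocyte stress rose in part. Nppa, one of the brightest signals of these hearts, read 13.92, 14.36, 14.16 and 14.18 in WT and 15.26, 14.82, 15.03 and 14.62 in cs-ERα-/-. The groups did not overlap, and the rise was 0.78 ± 0.11 (adjusted p = 0.00368), or 1.72-fold. Nppb, the gene of B-type natriuretic peptide, did not go with it, at 14.08 to 14.75 in WT, 14.39 to 14.59 in cs-ERα-/- and a difference of 0.10 ± 0.12 (adjusted p = 0.836). Ankrd1, a titin-binding repeat protein of the stressed sarcomere, was called by its dimmer probe at 0.62 ± 0.12 (adjusted p = 0.0354), the one called probe whose groups overlapped, while its brighter probe was 0.34 ± 0.09 higher (adjusted p = 0.118). Myh7, the slow myosin heavy chain that often rises with stress, read lower in cs-ERα-/- hearts by 0.63 ± 0.18 without being called (adjusted p = 0.16). In the list of 22 stress and fetal genes tested, 5 were called higher (Timp1, Lgals3, Nppa, Acta1 and Mybpc2), none lower, and the median was 0.08. Of all named genes, 0.534% were called higher by the brightest probe. All 5 are counted again in other lists: Acta1 and Mybpc2 as skeletal isoforms, Timp1 as a matrix gene, Lgals3 as myeloid and Nppa as atrial. Postn and Ankrd2, further stress genes, were not detected.

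In the list of 39 myeloid genes tested, 8 were called higher and none lower, 38 lay above 0, the median was 0.40, and in 18 of the 39 the groups did not overlap. Several members were already on the authors' published list from these arrays, so these counts are not independent of it. Of all named genes, 0.534% were called higher by the brightest probe and 48.6% lay above 0. The groups did not overlap for 6.08% of all probes. The called members were Lgals3 (galectin-3, a lectin of activated macrophages), the lysozyme gene Lyz1, the complement genes C1qb and C1qc, Laptm5, Fcer1g (the shared signalling chain of Fc receptors), F13a1 and Mrc1 (the mannose receptor of resident macrophages). Lgals3 read 7.76, 7.90, 7.85 and 8.09 in WT and 8.83, 8.95, 9.41 and 8.93 in cs-ERα-/- hearts. No heart of one group came near the other, and the rise was 1.13 ± 0.12 (adjusted p = 0.000311), or 2.18-fold. The other 7 rose by 0.35 (Laptm5) to 0.49 (F13a1), among them C1qb by 0.47 ± 0.07 (adjusted p = 0.00547) and Mrc1 by 0.38 ± 0.07 (adjusted p = 0.0298). Lyz2, the second lysozyme gene, was called by its dimmer probe (0.77 ± 0.10, adjusted p = 0.00174) and not by its brighter one (0.49 ± 0.11, adjusted p = 0.0717), and Lyz1 and Lyz2 are close paralogs whose probes may share signal.

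The mean level of the 39 myeloid genes was 7.83 to 8.07 on the WT arrays and 8.33 to 8.37 on the cs-ERα-/- arrays, so the cs-ERα-/- hearts lay close together and above all WT hearts. The macrophage marker Adgre1 was 0.61 ± 0.14 higher (adjusted p = 0.0799) and the scavenger receptor gene Cd163 0.46 ± 0.11 (adjusted p = 0.0803), neither called. Cx3cr1, the fractalkine receptor, was the one member below 0, at -0.22 ± 0.22. Ptprc (CD45), Itgam, Ccr2 and Msr1 were not detected, and of 27 neutrophil and lymphocyte genes only 4 were tested, none called, with a median of -0.31. Some called genes outside the list are also known from leukocytes: Alox5ap of leukotriene synthesis rose by 0.39 ± 0.08 (adjusted p = 0.0298), the chemokine gene Ccl12 by 0.93 ± 0.18 (adjusted p = 0.0309, by its dimmer probe, which was detected on 1 of 4 WT arrays) and Fcrls by 0.47 ± 0.10 (adjusted p = 0.0488). These 3 were picked after their values were seen.

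Secreted inhibitors and matrix genes included the smallest adjusted p. Timp1, which inhibits matrix metalloproteinases, read 7.33, 7.62, 7.13 and 7.37 in WT and 8.82, 9.17, 8.73 and 8.70 in cs-ERα-/- hearts. The gap between the groups was over a whole log2 unit, the rise was 1.49 ± 0.12 (adjusted p = 1.94e-05), and a second probe rose by 1.60 ± 0.12 (adjusted p = 9.64e-06). In an ordinary linear model neither of these probes was called (adjusted p = 0.0987 for the first). The 3 probes called in that model were of Dennd2a, Rpp25 and Shd. Other leading rises were not called by it either: Atp2a1 (adjusted p = 0.183), Lgals3 (0.15), Acta1 (0.287) and Nppa (0.263). Serpina3n, an acute-phase protease inhibitor, rose by a like amount, 2.83-fold, with far more spread: WT hearts ranged from 5.91 to 7.82 and cs-ERα-/- hearts from 7.94 to 8.90 (adjusted p = 0.0488). Lcn2 (lipocalin-2), an iron-carrier protein of the acute phase, rose by 1.17 ± 0.21 (adjusted p = 0.0148), from 5.33 to 6.4 in WT to 6.75 to 7.50. Lcn2 was detected on 3 of the 4 WT arrays. Clu (clusterin), an extracellular chaperone, rose by 0.32 ± 0.06 (adjusted p = 0.0136) and Ptgds, prostaglandin D synthase, by 0.65 ± 0.07 (adjusted p = 0.000311). Of 43 fibroblast and matrix genes tested, 3 were called higher (Timp1, Dpt and Ccdc80) and none lower, and 32 lay above 0 with a median of 0.14. Over all named genes the shares were 0.534% called higher and 48.6% above 0. The fibrillar collagens Col1a1 (0.01 ± 0.09), Col1a2 (-0.03 ± 0.17) and Col3a1 (0.31 ± 0.17) were not called.

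Large rises were also found for genes outside these groups: Sertm1, a membrane protein, by 1.11 ± 0.20 (adjusted p = 0.0206), Slc17a7, a vesicular glutamate transporter, by 0.85 ± 0.14 (adjusted p = 0.00689), and Slc51a, a subunit of the organic solute transporter, by 0.81 ± 0.12 (adjusted p = 0.00402). Sertm1 was detected on 3 of the 4 WT arrays. Phlda3, a p53 target that restrains Akt, rose by both probes, from 7.90 to 8.30 in WT to 8.72 to 9.05 by the brighter one (0.78 ± 0.11, adjusted p = 0.00314). Of 22 p53 targets tested, Phlda3 and Ephx1 (0.34 ± 0.07, adjusted p = 0.0496) were called, 17 lay above 0 and the median was 0.13. Cdkn1a, the p21 cell cycle inhibitor, was 0.54 ± 0.16 higher without being called (adjusted p = 0.199). Gpx1, a glutathione peroxidase, was the 1 of 32 oxidant and antioxidant genes that was called (0.32 ± 0.06, adjusted p = 0.0151). Among 20 genes listed as responsive to estrogen in other tissues, Ptgds and Lcn2 were called higher, none lower, with 12 above 0 and a median of 0.11. Without cs-ERα-/- replicate 4 the median of that list was -0.007, with 9 of 18 genes above 0. Greb1 and Pgr, classical ERα targets, were not detected in any heart.

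Of the 8 named genes that fell, 2 (Dennd2a and Exoc2) were among 25 genes of the exocyst and vesicle traffic tested, against 0.095% of all named genes called lower, and none of that list was called higher (median 0.02). That list was written with earlier results of these data known, so its share of calls cannot be read against that of all genes. Parp12, a mono-ADP-ribosyltransferase induced by interferon in other cells, read 6.87, 6.88, 6.99 and 6.91 in WT and 6.09, 6.27, 5.94 and 6.07 in cs-ERα-/- hearts, a fall of 0.82 ± 0.11 (adjusted p = 0.00327). Dennd2a, an exchange factor for Rab GTPases, fell by 0.78 ± 0.09 (adjusted p = 0.000311), from 8.17 to 8.32 in WT to 7.41 to 7.55. Ctnna3, αT-catenin of the intercalated disc that joins cardiomyocytes, fell by 0.63 ± 0.12 (adjusted p = 0.0278) and was the 1 of 14 intercalated disc genes called. Exoc2, a subunit of the exocyst that tethers secretory vesicles, fell by 0.62 ± 0.10 (adjusted p = 0.00688), while Exoc4 of the same complex was 0.25 ± 0.07 higher (adjusted p = 0.187). Falls of 0.48 to 0.50 were found for Taf15 (an RNA-binding protein), Dcakd, Ung (uracil DNA glycosylase) and Slc38a2 (a neutral amino acid transporter). The dimmer probes of 2 of these genes were not called, at -0.29 ± 0.13 for Ung and at -0.08 ± 0.10 and 0.07 ± 0.16 for Slc38a2. By the brightest probe the lowest WT heart was above the highest cs-ERα-/- heart for all 8 genes. A probe without a gene name was at 5.48 to 6.48 in WT and not detected on any cs-ERα-/- array, so that its fall has only a bound, of at least 1.56-fold (adjusted p = 0.0114).

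**Figure D2:**
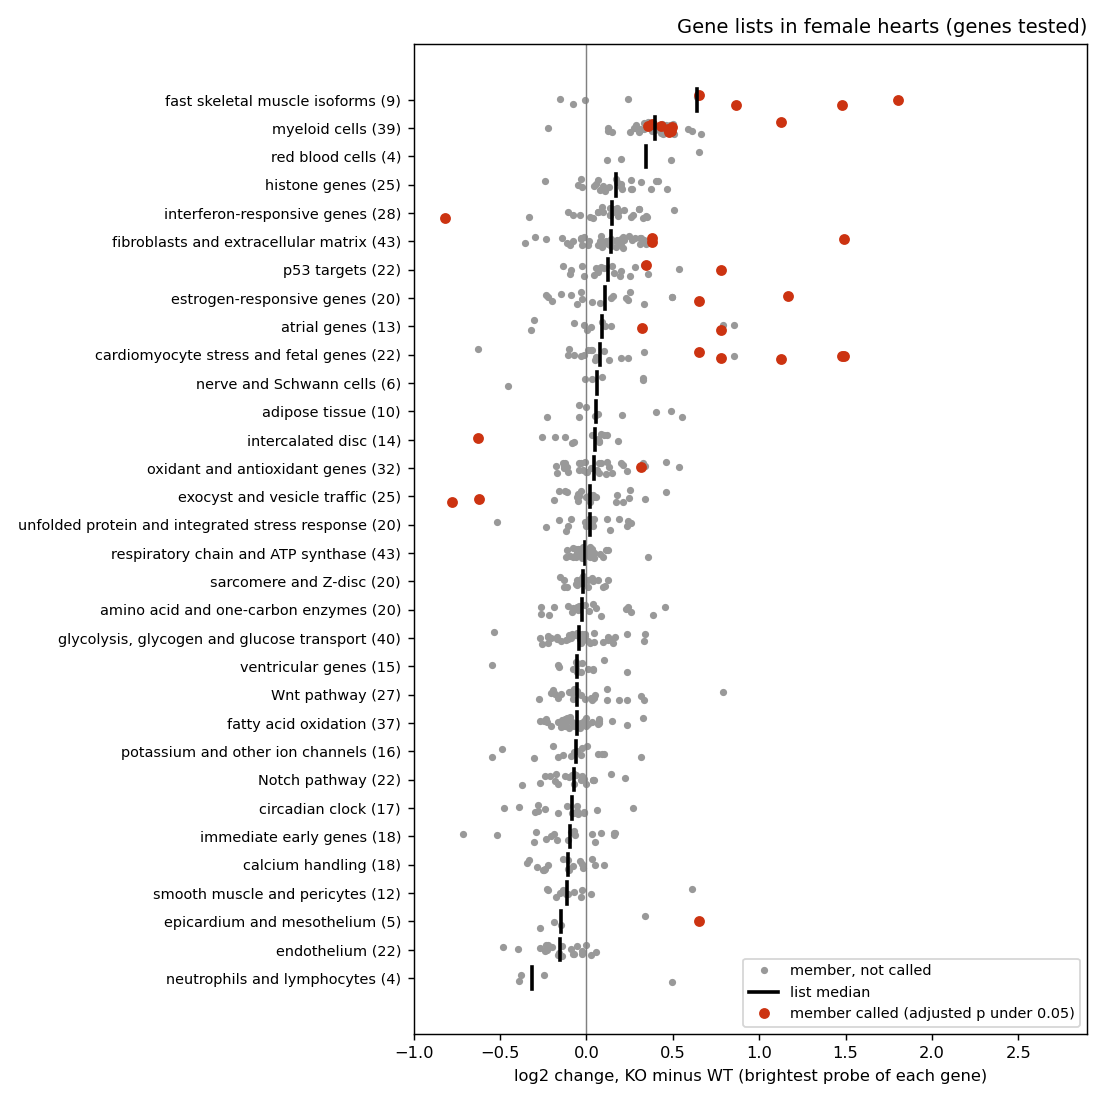
Log2 change (cs-ERα-/- minus WT, horizontal axis) of each tested gene in 32 gene lists, ordered by list median (black bars), with the number of genes tested in parentheses and called genes in red. The lists named fast skeletal isoforms (median 0.64) and myeloid cells (median 0.40) lie farthest to the right among lists with called genes, and the metabolic lists centre near 0. All lists were written with earlier results of these data known.

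Lists of the working cardiomyocyte held no called gene, as could be so at the overall share of 0.629% of named genes called by the brightest probe. None was called among 20 sarcomere genes (median -0.02), 15 ventricular genes (-0.05), 18 genes of calcium handling (-0.11), 16 of ion channels (-0.06), 37 of fatty acid oxidation (-0.06), 40 of glycolysis, glycogen and glucose transport (-0.05) or 43 of the respiratory chain and ATP synthase (-0.01), nor among 20 of amino acid and one-carbon metabolism (-0.02) or 20 of the unfolded protein response (0.02). Some of these medians had no stable sign: with median scaling that of the sarcomere genes was 0.02 and that of the respiratory chain 0.03. Without cs-ERα-/- replicate 4 that of the unfolded protein response was -0.06. Those of ventricular genes, calcium handling, ion channels, fatty acid oxidation and glycolysis, glycogen and glucose transport stayed below 0 in every alternative. No list median was tested. The calcium handling list leaves out Atp2a1, the called SERCA1 gene, which was counted among the skeletal isoforms. In calcium handling 15 of 18 genes lay below 0, among them Asph, whose locus also encodes junctin (-0.28 ± 0.08, adjusted p = 0.136), and the calcium channel gene Cacna1c (-0.34 ± 0.13, adjusted p = 0.345). For Asph this is the brightest probe only, and the authors' published list, over both sexes, gives the gene as higher in cs-ERα-/-. Kcnd2, a subunit of the transient outward potassium current, was at -0.54 ± 0.18 (adjusted p = 0.238). In the glucose list, Pdk1, which inhibits pyruvate dehydrogenase, was at -0.26 ± 0.07 (adjusted p = 0.124) and Pfkp, the platelet isoform of phosphofructokinase, at 0.33 ± 0.09 (adjusted p = 0.152). The fatty acid enzyme with the smallest p was Acot7 (-0.23 ± 0.06, adjusted p = 0.103).

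Lists of other cells and signals mostly had no called gene either, and some of their medians depended on cs-ERα-/- replicate 4. Of 22 endothelial genes 20 lay below 0 (median -0.15), led by Cavin1 (-0.40 ± 0.11, adjusted p = 0.133) and Cav2 (-0.48 ± 0.15, adjusted p = 0.225), both of caveolae, while Pecam1 and Vwf were at 0.02 and 0.06. Replicate 4 had the lowest mean level of the endothelial genes (9.80, against 9.92 to 10.12 in the other 7 hearts), and without it the median was -0.08, with 5 of 22 above 0. Of 17 circadian genes 15 lay below 0 (median -0.08), led by the repressor gene Nr1d1 (-0.39 ± 0.11, adjusted p = 0.142), and the hour of sampling is not given in the labels. Replicate 4 was also lowest for the circadian genes (8.31), and without it their median was -0.05, with 6 of 17 above 0. Of 25 histone genes 21 lay above 0 (median 0.17), led by H2bc6 (0.40 ± 0.10, adjusted p = 0.0893). Of 22 Notch pathway genes 17 lay below 0 (median -0.07), led by the targets Nrarp (-0.37 ± 0.12, adjusted p = 0.258) and Hes1 (-0.27 ± 0.09, adjusted p = 0.292), and without replicate 4 there were 10 of 22 above 0. Wnt genes (27, median -0.05) and immediate early genes (18, median -0.10) held no call, and among the latter Nr4a2 was lowest (-0.72 ± 0.17, adjusted p = 0.0835). None of 10 adipose, 6 nerve and 4 red cell genes was called (medians 0.06, 0.06 and 0.35, the last 0.66 over 3 genes without replicate 4), nor any of 12 smooth muscle genes (-0.11, or -0.05 without replicate 4), and of 5 epicardial genes only Ptgds was (median -0.15).

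One cs-ERα-/- heart, replicate 4, stood apart by genes of atrial muscle. Sln (sarcolipin, the SERCA inhibitor of atria) read 11.5 in that heart and 4.65 to 5.53 in the other 7. Myl7, the atrial regulatory light chain, read 10.16 against 4.58 to 5.67, and Myl4, the atrial essential light chain, 13.11 against 8.07 to 10.23. The highest of the other hearts was WT replicate 1 for all 3 genes. Mybphl, a myosin-binding protein of atria, read 9.77 in replicate 4 against 6.31 to 7.10, and Dkk3 9.28 against 6.97 to 7.91 by its brighter probe, both named after their values were seen. Bmp10, made in the atria, was not detected in any heart. Nppa did not follow these genes, since replicate 4 had the lowest Nppa of the 4 cs-ERα-/- hearts. Sln and Myl7 were each detected on 1 WT and 1 cs-ERα-/- array and so did not enter the test. Across all probes, 7 read over 1 log2 unit above the other 7 hearts in replicate 4, 6 did so in cs-ERα-/- replicate 2, and 0 or 1 in each other heart.

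**Figure D3:**
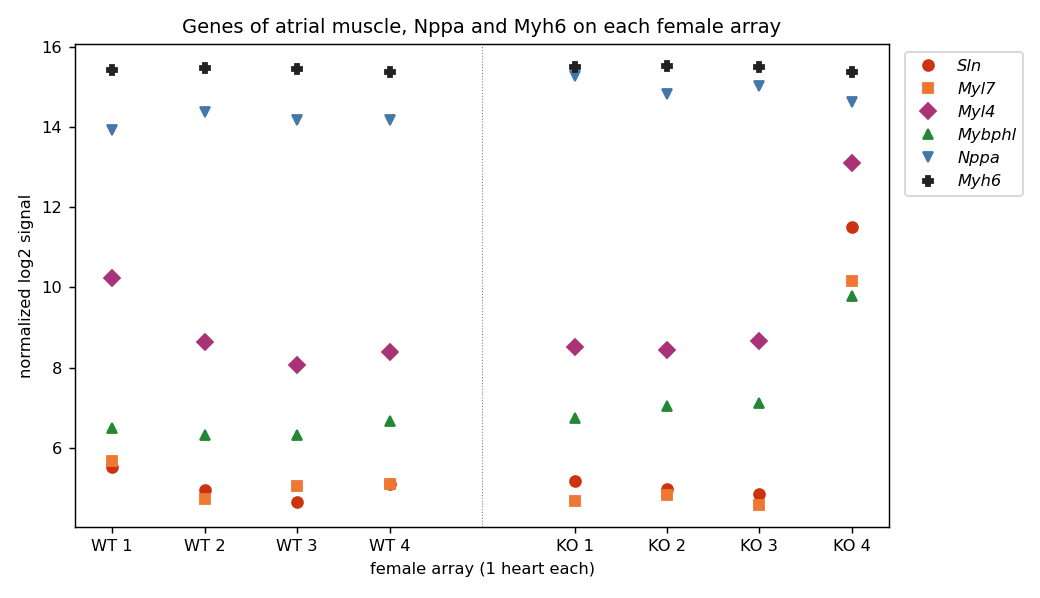
Normalized log2 signal (vertical axis) of Sln, Myl7, Myl4, Mybphl, Nppa and the brightest Myh6 probe on each of the 8 female arrays. cs-ERα-/- (KO) replicate 4 is above all other hearts for the first 4 genes, WT replicate 1 is next for Myl4, and Nppa is higher in all 4 KO hearts.

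Most calls did not depend on that heart. Without it, 75 probes were called (61 higher, 14 lower), 52 of them among the original 68. All 68 probes kept their direction, the change without it was 0.82 to 1.18 times the change with it (median 1), and the 16 calls lost all still had an unadjusted p under 0.05. The calls lost included Serpina3n (adjusted p = 0.0898 without replicate 4), Taf15, Slc38a2, Spsb4, F13a1 and Fcrls. Rises in which replicate 4 was the weakest cs-ERα-/- heart grew without it: Acta1 to 1.74, Atp2a1 to 1.98 and Nppa to 0.89. Mean levels of the 13 atrial genes tested were 8.02 to 8.25 in WT, 8.15 to 8.25 in cs-ERα-/- replicates 1 to 3 and 8.70 in replicate 4. Of these 13 genes Nppa and Clu were called with and without that heart, and Myl4 turned from 0.86 to -0.29 when it was left out.

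Calls made only without that heart were of genes in which it read nearer to WT than the other cs-ERα-/- hearts. Acta2, smooth muscle α-actin, which is also a fetal cardiac isoform, read 12.90, 12.33, 12.94 and 12.74 in WT, 13.47, 13.51 and 13.55 in cs-ERα-/- replicates 1 to 3 and 12.82 in replicate 4. The difference was 0.61 ± 0.15 and not called with 8 hearts (adjusted p = 0.0957), and 0.78 without replicate 4 (adjusted p = 0.00304), when 3 of its 4 probes were called. Fstl4, a follistatin-like gene, went from 0.70 (adjusted p = 0.0583) to 0.86 (adjusted p = 0.00522). Transcripts of immature red cells behaved alike: Slc4a1 (the band 3 anion exchanger) went from 0.65 to 0.78 (adjusted p = 0.106 and 0.0379) and Alas2 from 0.49 to 0.66 (adjusted p = 0.258 and 0.039). The 4 red cell genes tested averaged 9.73, 9.79, 9.78 and 9.50 in cs-ERα-/- replicates 1 to 4 and 9.09 to 9.51 in WT, and the part of blood left in the tissue in these differences was not tested. Rab4a (1.09 to 1.2) and Ssbp2 (-0.50 to -0.61) were also called only without replicate 4 (adjusted p = 0.0424 and 0.0379).

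**Figure D4:**
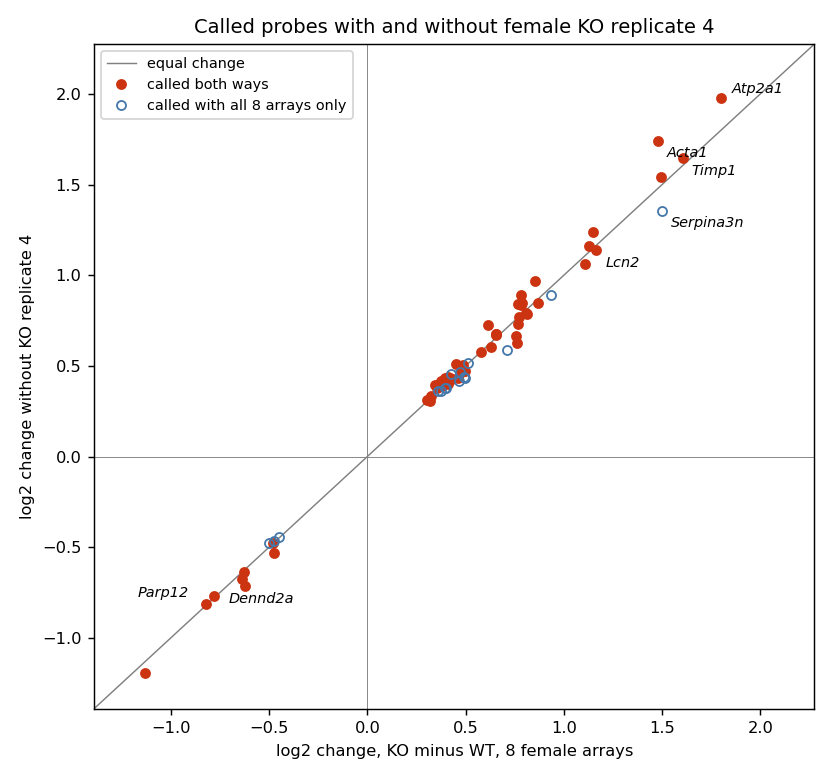
Log2 change of the 68 called probes with all 8 female arrays (horizontal axis) and without cs-ERα-/- (KO) replicate 4 (vertical axis), with a line of equal change. The points lie along the line, 52 called both ways (red) and 16 called with all 8 arrays only (open).

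A second heart, cs-ERα-/- replicate 2, was high in interferon-inducible GTPases. Igtp read 11.11 there and 8.82 to 9.43 in the other 7 hearts, Irgm2 11.61 against 9.40 to 10.04 and Gbp10 7.14 against 5.36 to 6.07, none of which was called. These genes were named after their values were seen. Of 28 interferon-responsive genes, 23 lay above 0 with a median of 0.15, and without replicate 2 the median was -0.0002. The one call of that list, the fall of Parp12, was kept without it. Psmb10, an immunoproteasome subunit, was not of this pattern: it rose by 0.41 ± 0.06 (adjusted p = 0.00359), with cs-ERα-/- hearts at 12.41 to 12.51 and WT hearts at 11.93 to 12.13.

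The changes in female hearts were mostly found in the 4 cs-ERα-/- and 4 WT male hearts too, which were normalized and fitted on their own and share no array with the females. Of the 68 probes called in females, 66 changed in the same direction in males (97.1%, against 64.2% of the 11630 probes tested in both), and 55 did so with an unadjusted p under 0.05 in males (80.9%, against 10.2%). Both sexes called 32 probes, which were 47.1% of the female and 25.4% of the 126 male calls (1.06% of male probes). The median size of the 68 changes was 0.60 in females and 0.48 in males, but the probes were chosen by their female values, which favours larger female sizes. Timp1 rose by 1.87 ± 0.20 in males, Lgals3 by 1.28 ± 0.12 and Dennd2a fell by 0.88 ± 0.10. The 2 probes of opposite sign were both of Psmb10, at -0.16 ± 0.16 and -0.13 ± 0.16 in males.

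**Figure D5:**
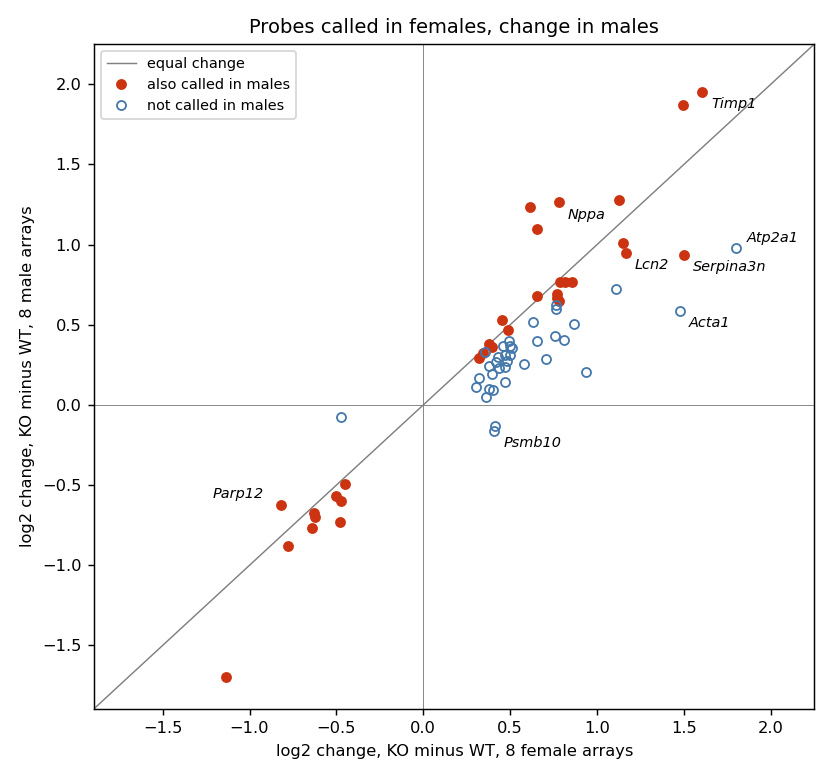
Log2 change (cs-ERα-/- minus WT) of the 68 probes called in females, in females (horizontal axis) and in males (vertical axis), with a line of equal change and probes called in both sexes in red. The 2 Psmb10 probes lie below 0 in males, and Acta1 and Atp2a1 lie below the line.

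No difference of the knockout effect between the sexes was called. In a fit of all 16 arrays, 0 of 12246 probes (0%) passed for the interaction in limma (smallest adjusted p = 0.757), and 456 had an unadjusted p under 0.05, against 612.3 by chance. Acta1 (1.48 in females and 0.59 in males) and Atp2a1 (1.80 and 0.98) were larger in females, and Ankrd1 by its called probe (0.62 and 1.23), Mybpc2 (0.65 and 1.09) and Nppa (0.78 and 1.26) larger in males, with an adjusted p of 0.999 for each of the 5 differences (unadjusted p = 0.0039 to 0.0413).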

How the data were processed

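Hearts of 16 mice were measured on Illumina MouseRef-8 arrays, and the 8 female arrays were analysed here (4 WT, 4 cs-ERα-/-). The authors read bead signals in Genome Studio and deposited an intensity per probe, already background-subtracted, with a detection p-value (deposited per probe and array); their cubic-spline normalized values served as an alternative. Intensities of the female arrays were corrected with the detection p (neqc in limma 3.58.1, R 4.3.3, offset 16), quantile normalized and put on a log2 scale. Probes with detection p under 0.05 on at least 3 of 4 arrays of either group were fitted with limma (lmFit, eBayes with trend), signed cs-ERα-/- minus WT, with Benjamini-Hochberg adjustment over all probes kept and a threshold of 0.05. A gene was given by its brightest kept probe. Males were fitted on their own, and the difference between the sexes as an interaction over 16 arrays.

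Named genes were the 12 largest called rises and falls, up to 4 members of each of 32 gene lists with the smallest p, a fixed set of check genes, the 6 largest calls made only with and only without cs-ERα-/- replicate 4, and classes of 5 or fewer; other genes were picked after their values were seen. The members and lists were chosen with earlier results of these data known. The methods give 2 BeadChips, but no label names them, so that no chip term was fitted. Replicate numbers were not taken to pair the samples. Fits were tested on simulated data, and the number of arrays limits the precision. Alternatives changed the background correction, scaling, filter, variance model, array weights, an atrial covariate, the arrays left out and the block. Promoters were searched with Python 3.11.15. Some genes are not reported here.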

Additional observations from a re-analysis of the deposited data

Results flagged for a closer look

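In 101 genes described above or examined with them, each group of 4 hearts was searched for a heart far from the other 3 by Dixon's criterion, and 21 of 202 groups (10.4%) held one. Chance alone gives about 1 in 20, but the share cannot be read against it, since several of these genes were chosen for an outlying heart. Of these, 10 lay in cs-ERα-/- replicate 4, which was high for Sln (11.5), Myl7 (10.16), Myl4 (13.11), Mybphl (9.774), Dkk3 (9.276), Mylpf (6.927), Ssbp2 (8.028) and Ung (10.09), and low for Acta2 (12.82) and Myh6 (15.36). In Mylpf, Ung and Myh6 the distance to the other 3 hearts was under 0.3 log2 units. cs-ERα-/- replicate 2 was high for Igtp (11.11) and Irgm2 (11.61) and low for C1qb (10.84). Replicates 3 and 1 of the same group were high for Nubp1 (9.731) and for Pfkp (9.541). Among WT hearts, replicate 1 was low for Tnni2 (6.837) and Slc4a1 (6.265) and high for Tesc (10.83), replicate 3 was high for Fcrls (7.374) and low for Exoc2 (8.911), and replicate 4 was high for Ctnna3 (7.045).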

How the results depend on the processing

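All of the 68 called probes that an alternative tested kept their direction and an unadjusted p under 0.05 in it, so that alternatives moved the calls through the adjusted p. With no trend of variance with signal 22 probes were called (17 higher, 5 lower), and in an ordinary linear model 3 (2 higher, 1 lower); these differ only in how variance is shared across probes. Calls were 64 with the authors' normalized values, 64 without background correction, 64 without a filter, 59 with detection required in both groups and 67 with median scaling, of which 37 were among the 68. More probes were lower in the fit of all 16 arrays (19 of 87), with array weights (17 of 95) and with the mean of Myl7, Myl4 and Sln as a covariate (18 of 90). Leaving out 1 heart gave 38 to 79 calls, 30 to 69 higher and 6 to 14 lower. Without both cs-ERα-/- replicate 4 and WT replicate 1, chosen after seeing the data, 50 were called. Direction turned for Myl4 (-0.10 with the atrial covariate) and, on leaving out 1 heart, for Myl4 (-0.29 to 1.32), Igtp (-0.39 to 0.38), Irgm2 (-0.26 to 0.47) and Gbp10 (-0.072 to 0.49). With the replicate number as a replicate block, 82 probes were called, 59 of them among the 68. Deviations of same-numbered hearts correlated at -0.11 to 0.20, which gave little sign of pairing, but so few values cannot exclude it. No alternative called a probe for the difference between the sexes (218 to 595 at an unadjusted p under 0.05). Signals near background limit Esr1, Esr2 and the low markers named above.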
